A study of Mus musculus with 27 samples.

Results

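The immunoglobulin heavy chain variable (Ighv) genes were followed through RNA-seq of the contralateral cortex and hippocampus of mice whose brains were infused with patient autoantibodies against IgLON5. The members are the rows of the count table whose Ensembl identifier carries, in GENCODE M21, a symbol beginning with Ighv and a digit and the gene type IG_V_gene. They number 113 of 55487 genes, and all 113 lie on the minus strand of chromosome 12 between 113578504 and 116000461 (GRCm38). The mice were male C57Bl/6J wild-type animals, 8 weeks old at the start, and an osmotic pump delivered PBS, pCtrl or α-IgLON5 into the right lateral ventricle for 14 days at 0.25 μl/h. Here α-IgLON5 is the human autoantibody pool and pCtrl is a control human IgG, which the methods describe as a serum pool and the sample labels as a non-reactive monoclonal. There were 27 libraries, 14 from cortex (5 PBS, 5 pCtrl and 4 α-IgLON5) and 13 from hippocampus (5, 4 and 4). The number in a title was read as that of the mouse, so the α-IgLON5 libraries come from both tissues of mice 8, 9, 16 and 17. Total counts ranged from 19385642 to 58550621 per library. The labels give the cell type as neurons, but the libraries were made from tissue, and the summed level of 7 marker genes of glia and vessels ranged from 1306 to 3250 normalized CPM (counts scaled to a common library total) over the 6 groups.

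An antibody heavy chain is encoded by a variable (V), a diversity (D), a joining (J) and a constant gene segment, and a B cell joins one V segment to a D and a J segment by recombination of its DNA. Germline V segments are little transcribed outside the B lineage, whereas plasma cells, the antibody-secreting descendants of B cells, hold very large amounts of heavy chain mRNA. The set of V genes seen in a tissue can therefore reflect which B lineage clones are present, and an expanded clone can put many reads on a single V gene. Counts per V gene do not by themselves identify clones, and the joined V, D and J sequences were not examined. For the rise of immunoglobulin genes the paper proposes B cell infiltration or expression by microglia under inflammation, and neither was tested here. In a tissue library, fewer cells of a type and less RNA per cell cannot be told apart.

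The V genes resemble each other, so the germline sequence decides how well a 75-base read can be placed. A coding sequence was found for 113 of 113 members in the GENCODE M21 transcripts, with a median length of 351 bases, and most of it lies in the second exon. The second exons of 57 members were at least 95% identical to that of another member, and those of Ighv1-62-2 and Ighv1-71 were identical to each other. The identity to the closest member had a median of 95.1% (range 71.6 to 100%) over all members and of 95.6% (88.9 to 99.0%) over the 12 members with the highest mean share of Ighv counts. Of all 75-base windows of a member's transcript, a median of 94.6% (2.81 to 100%) occurred in no other Ighv gene or pseudogene. Over the 12 leading members this median was 100% (28.3 to 100%), and the lowest value belonged to Ighv1-72, which differs from Ighv1-62-3 at 3 positions of the second exon. The last 294 coding bases of the 5 members that were the most counted gene of a library are given here in GRCm38, 5′ to 3′ on the minus strand, because the comparison of mice turns on them. Capitals mark the bases that differ from the closest member, which is Ighv1-85, Ighv1-80, Ighv1-77, Ighv1-18 and Ighv7-2, in this order.
Ighv1-81, chr12:115920279-115920572: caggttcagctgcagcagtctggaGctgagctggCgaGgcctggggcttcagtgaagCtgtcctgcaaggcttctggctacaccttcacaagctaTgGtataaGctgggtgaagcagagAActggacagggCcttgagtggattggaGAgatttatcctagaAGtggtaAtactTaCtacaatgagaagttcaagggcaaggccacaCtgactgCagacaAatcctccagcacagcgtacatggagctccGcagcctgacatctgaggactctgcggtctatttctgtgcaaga
Ighv1-82, chr12:115952538-115952831: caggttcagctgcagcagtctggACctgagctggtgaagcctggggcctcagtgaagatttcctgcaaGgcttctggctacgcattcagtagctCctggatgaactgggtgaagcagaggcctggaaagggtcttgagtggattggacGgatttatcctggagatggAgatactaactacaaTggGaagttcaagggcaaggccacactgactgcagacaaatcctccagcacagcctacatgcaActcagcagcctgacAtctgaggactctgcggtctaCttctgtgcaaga
Ighv1-78, chr12:115868773-115869066: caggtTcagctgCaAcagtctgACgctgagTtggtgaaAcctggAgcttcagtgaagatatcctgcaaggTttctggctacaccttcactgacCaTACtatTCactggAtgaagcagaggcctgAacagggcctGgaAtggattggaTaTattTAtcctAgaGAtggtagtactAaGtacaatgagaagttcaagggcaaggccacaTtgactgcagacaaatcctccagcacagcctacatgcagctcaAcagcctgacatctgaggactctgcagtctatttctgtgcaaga
Ighv1-22, chr12:114746273-114746566: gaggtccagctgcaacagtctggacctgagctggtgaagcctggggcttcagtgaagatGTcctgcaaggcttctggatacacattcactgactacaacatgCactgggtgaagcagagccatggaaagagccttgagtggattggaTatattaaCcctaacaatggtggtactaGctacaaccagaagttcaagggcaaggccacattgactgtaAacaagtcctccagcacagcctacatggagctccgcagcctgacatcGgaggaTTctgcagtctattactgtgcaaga
Ighv7-3, chr12:114153180-114153473: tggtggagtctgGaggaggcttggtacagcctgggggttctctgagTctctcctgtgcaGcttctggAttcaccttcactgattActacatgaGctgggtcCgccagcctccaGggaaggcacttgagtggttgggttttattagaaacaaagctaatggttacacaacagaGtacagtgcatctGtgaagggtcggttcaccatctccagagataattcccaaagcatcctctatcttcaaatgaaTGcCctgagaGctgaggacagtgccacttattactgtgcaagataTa
All of these stretches are exonic and coding. They carry 21, 11, 30, 10 and 15 capitals, and 100%, 100%, 100%, 98.6% and 100% of the 75-base windows of the 5 genes were distinct. The 9 bases TGTGCAAGA, at which the V segment meets the D segment, stand within the last 12 coding bases of 58 of all 113 members (51.3%) and of 9 of the 12 leading ones. These letters were taken from the end of Ighv1-81, itself a leading member, and 12 of the 22 members tested below carried them there. The search was for these letters on the coding strand.

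In α-IgLON5 mice the Ighv genes were counted in both tissues of each animal, and in control mice they were close to absent. The summed Ighv level was 52.5, 5.22, 23.3 and 126 CPM of the library total in the cortices of mice 8, 9, 16 and 17. In their hippocampi it was 178, 5.72, 72.2 and 253 CPM. Mouse 9 was lowest and mouse 17 highest in both tissues. Genes of the meninges, the membranes around the brain, were also lowest in mouse 9, where the summed level of 5 markers was 78.7 normalized CPM in the cortex and 54.8 in the hippocampus. In mice 8, 16 and 17 it was 204, 128 and 206 in the cortex and 272, 131 and 252 in the hippocampus, and in pCtrl mice it ranged from 101.5 to 170.1 in the cortex and from 194 to 234 in the hippocampus. In PBS mice the meningeal sum ranged from 82.8 to 249.9 in the cortex and from 88.4 to 264.1 in the hippocampus. In both tissues it was lowest in PBS mouse 14, where Ighv was at 0.117 and 0.619 CPM. It was highest in PBS mouse 38, where Ighv was at 0.0969 and 0.091 CPM. The part of meningeal tissue in the Ighv level was not tested.
The 5 PBS cortices ranged from 0 to 0.117 CPM (median 0.033), the 5 pCtrl cortices from 0.0978 to 0.679 CPM (median 0.208), the 5 PBS hippocampi from 0 to 0.619 CPM (median 0.0717) and the 4 pCtrl hippocampi from 0 to 1.09 CPM (median 0.284). No control library reached an α-IgLON5 library of its tissue, since the lowest α-IgLON5 library lay 7.68-fold above the highest pCtrl cortex and 5.24-fold above the highest pCtrl hippocampus. The medians of α-IgLON5 and pCtrl differed 182-fold in the cortex and 440.5-fold in the hippocampus. Without mouse 8 or 17 the ratio was 112 in the cortex and 254 in the hippocampus, and without the hippocampus of pCtrl mouse 15 or 75 it was 663.6. In counts, the 8 α-IgLON5 libraries held 24021 Ighv counts and the 19 control libraries 165, with 5 control libraries at 0. A count of 0 allows up to 3 counts in a library, and the intervals given here cover counting error only.

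**Figure D1:**
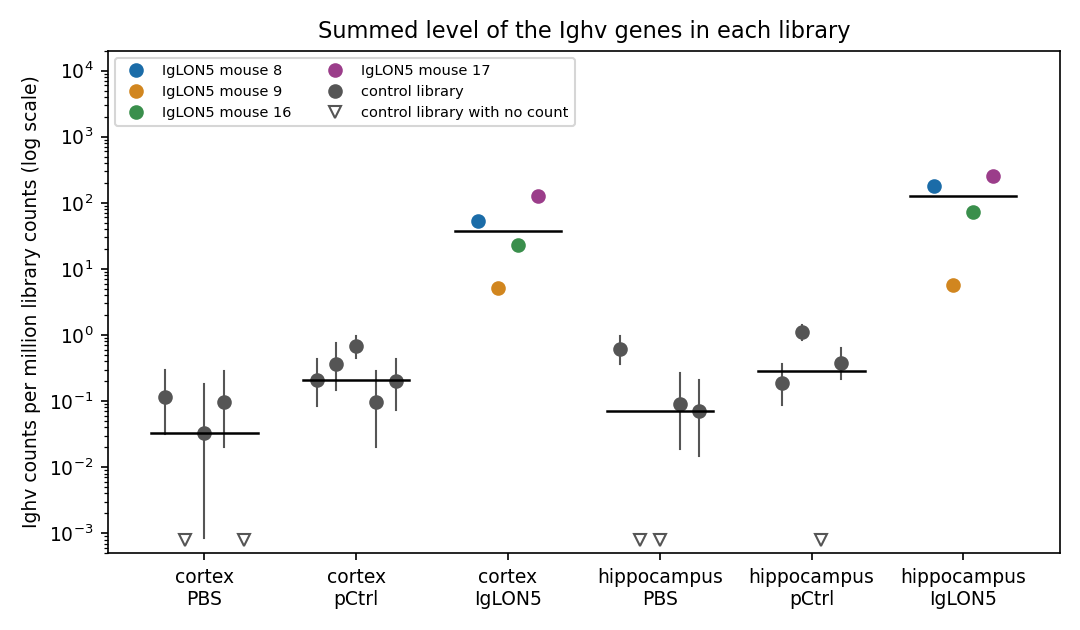
Summed Ighv level of each of the 27 libraries, in CPM of the library total on a log axis, by tissue and treatment. Points are libraries with 95% Poisson intervals, open triangles at the bottom (placed off the scale) are the 5 control libraries with no count, and bars are group medians. The α-IgLON5 libraries range from 5.22 to 253 CPM and the highest control library is at 1.09 CPM.

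Of the 113 members, 89 had a count in an α-IgLON5 library, 36 of these also in a control library, and 24 had none in any library. The median share of distinct windows among the 24 was 91.0%. A count was seen in 4 of the 4 α-IgLON5 mice for 34 members, in 3 for 31, in 2 for 9 and in a single mouse for 15. The members with at least 10 counts in each of the 4 mice were Ighv1-78, Ighv7-3, Ighv1-22, Ighv1-82, Ighv1-53 and Ighv6-6.

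In the hippocampus, most Ighv genes abundant enough to be tested rose with α-IgLON5 against pCtrl. A gene was tested with edgeR (quasi-likelihood F test, Benjamini-Hochberg) if 4 or more libraries had 10 or more counts for it, and it was a differentially expressed gene (DEG) if its fold exceeded 2 with an adjusted p under 0.05. Only 22 members passed the filter and 91 did not. All 22 passed through the α-IgLON5 libraries and 0 through the control libraries, so they had to be higher in α-IgLON5 and their count lends no support of its own. Together they held 79.8% of the Ighv counts in α-IgLON5 libraries. In the hippocampus 19 of the 22 were up-regulated DEGs against pCtrl, where 2.21% of all 20271 tested genes were, and 19 against PBS, where 2.56% were. In 14 of the 22 every α-IgLON5 hippocampus lay above every pCtrl hippocampus, as it did for 6.68% of all tested genes, and 13 lay so above PBS (4.49%). The 2 comparisons share the α-IgLON5 libraries. The median fitted log2 fold change against pCtrl was 8.47 over the 22 and 0.0012 over all tested genes, and it was 6.53 with the 11 members that had no pCtrl count set at their bound. Against pCtrl 9 members were called in a fit of the 2 groups alone (1.41% of all tested genes), and 0, with 21 at an unadjusted p under 0.05, among mice numbered 8 to 17, which leaves 2 pCtrl hippocampi and where 0.242% of all genes were called up. DESeq2 called 13 against pCtrl (2.26%) and 12 against PBS (2.6%). Where a control group holds no count, a fold change is a bound against 3 counts in each control library, and where it holds 1 to 3 counts it is a ratio of normalized counts with its 95% counting interval.

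The named members with the smallest adjusted p values in the hippocampus, Ighv1-53, Ighv7-3, Ighv6-6, Ighv1-78 and Ighv1-22, were counted in every α-IgLON5 mouse. Ighv1-53 (ENSMUSG00000093894, 115158403 to 115158835) had 232, 7, 232 and 205 counts in the hippocampi of mice 8, 9, 16 and 17 and 0 in the 4 pCtrl hippocampi. It was at least 94.4-fold higher in α-IgLON5 (adjusted p = 2.71e-06). Mouse 9 alone stood low, and the groups did not overlap.
For Ighv7-3 the same mice had 298, 8, 60 and 796 counts, and pCtrl mice 10, 15, 37 and 75 had 0, 3, 0 and 0. The ratio was 678 (counting interval 231 to 3293, adjusted p = 3.88e-06). The 3 counts of pCtrl mouse 15 stayed below the 8 of α-IgLON5 mouse 9.
Ighv1-78, the member with the highest mean share, had 452, 26, 120 and 311 counts against 0, 8, 0 and 0 in pCtrl. Its log2 fold change was 7.62 (SE 0.95, adjusted p = 1.79e-05). Ighv6-6 had 55, 12, 87 and 230 counts against 4, 2, 0 and 0, a log2 fold change of 6.50 (SE 0.81, adjusted p = 1.75e-05). For both genes all 4 α-IgLON5 libraries were above all 4 pCtrl libraries.
Ighv1-22 had 56, 6, 490 and 121 counts against 1, 5, 0 and 0 (log2 fold change 7.28, SE 1.18, adjusted p = 0.000415). Ighv1-26 had 426, 3, 326 and 48 counts against 0 in each pCtrl hippocampus, at least 124-fold higher (adjusted p = 0.00291). These genes were high in mouse 16, Ighv1-26 also in mouse 8, and mouse 9 was again lowest.
For 5 of these genes leaving out 1 library moved the fitted fold by over 1.5 times. The fitted log2 fold change fell from 9.00 to 8.17 for Ighv7-3 and from 6.50 to 5.85 for Ighv6-6 without mouse 17, from 7.62 to 6.70 for Ighv1-78 and from 11.18 to 10.17 for Ighv1-26 without mouse 8, and from 7.28 to 5.99 for Ighv1-22 without mouse 16. Without pCtrl mouse 15 it was 11.46, 11.32 and 8.95 for Ighv7-3, Ighv1-78 and Ighv1-22, and without pCtrl mouse 10 it was 7.48 for Ighv6-6. The call of Ighv1-26 was lost in the fit of the 2 groups alone (adjusted p = 0.0755).

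Ighv1-82, Ighv1-58 and Ighv1-76 were far higher in mouse 17 than in the other mice. Ighv1-82 had 100, 9, 49 and 1928 counts in the hippocampi of mice 8, 9, 16 and 17 and 0, 0, 0 and 13 in pCtrl mice 10, 15, 37 and 75. Its log2 fold change of 7.71 (SE 1.56, adjusted p = 0.0054) was 4.93 without the hippocampus of mouse 17 and 12.1 without that of pCtrl mouse 75, and its call was lost in the fit of the 2 groups alone (adjusted p = 0.0598). The 13 counts are the most that any member had in a control library.
Ighv1-58 (115312166 to 115312599) had 13, 6, 2 and 1487 counts against 0, 2, 0 and 0. It was not tested, because only 3 libraries of the series reached 10 counts, although it had 1913 counts in α-IgLON5 libraries. Ighv1-76 had 52, 1, 13 and 929 counts against 0 in pCtrl, at least 113-fold higher (adjusted p = 0.0486). Both genes stood high in mouse 17.
Ighv1-81, Ighv1-55 and Ighv10-1 were the tested members not called in the hippocampus (adjusted p = 0.067, 0.0683 and 0.0507). Ighv1-81 had 16, 0, 7 and 460 counts against 0, 2, 0 and 0, and the groups overlapped at mouse 9. Ighv10-1 had 59, 1, 76 and 337 counts and Ighv1-55 had 59, 0, 4 and 128 counts, with 0 in pCtrl.
The named genes Ighv1-72, Ighv11-2, Ighv9-3, Ighv5-17, Ighv14-2 and Ighv2-9-1 were called with adjusted p values from 0.00172 to 0.0436 and had 0 to 3 counts in mouse 9. Leaving out 1 library ended the call of Ighv1-72, Ighv11-2 and Ighv5-17 for each pCtrl hippocampus and for that of α-IgLON5 mouse 8 (adjusted p from 0.0536 to 0.246). It ended that of Ighv14-2 without pCtrl mouse 10 or 37 or α-IgLON5 mouse 8 (0.0727 to 0.152), and that of Ighv1-76 without any pCtrl hippocampus or that of α-IgLON5 mouse 8, 9 or 17 (0.052 to 0.126). The fitted log2 fold change fell without mouse 17 from 11.09 to 8.16 for Ighv1-76 and from 5.69 to 4.81 for Ighv9-3. Without mouse 8 it fell from 7.37 to 4.203 for Ighv1-72, from 7.35 to 6.22 for Ighv11-2, from 9.63 to 7.06 for Ighv5-17 and from 8.61 to 6.07 for Ighv14-2. Without pCtrl mouse 15 it was 10.18, 8.68 and 7.69 for Ighv1-72, Ighv11-2 and Ighv9-3. The fit of the 2 groups alone ended the calls of Ighv1-72, Ighv1-76, Ighv11-2, Ighv5-17, Ighv14-2 and Ighv2-9-1 (0.0584 to 0.15), and DESeq2 those of Ighv1-72, Ighv11-2 and Ighv5-17 (0.09 to 0.16). Ighv4-1 and Ighv8-12, each the most counted member of its family, had 1 to 2 and 0 to 19 counts per α-IgLON5 hippocampus and were not tested.

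In the cortex 10 of the 22 tested members were up-regulated DEGs against pCtrl, where 2.14% of all tested genes were, and 10 against PBS, where 2.24% were. In 11 of the 22 the α-IgLON5 and pCtrl cortices did not overlap with α-IgLON5 higher, as in 3.68% of all tested genes, and 11 lay so above PBS (3.14%). The median log2 fold change against pCtrl was 7.07 as fitted and 3.57 with 12 members at their bound, beside -0.0066 over all tested genes. The fit of the 2 groups alone called 6 (1.27% of all tested genes), and that of mice numbered 8 to 17 called 0 (0.0444%), with 16 at an unadjusted p under 0.05, while DESeq2 called 8 in all mice (2.3%). Ighv1-53 had 77, 5, 95 and 163 counts in the cortices of mice 8, 9, 16 and 17 and 1, 1, 1, 0 and 0 in pCtrl mice 10, 11, 15, 37 and 75. The ratio was 106 (counting interval 35.96 to 516.5, adjusted p = 0.000235). Mouse 9, the lowest α-IgLON5 library, was above each pCtrl cortex.
Ighv1-78 had 251, 23, 81 and 103 counts against 1, 1, 1, 0 and 0, a ratio of 143 (48.6 to 695, adjusted p = 0.000302). Ighv7-3 had 72, 55, 22 and 171 counts against 0, 0, 1, 0 and 0, a ratio of 299 (53.3 to 11860, adjusted p = 0.000552). Here mouse 9 was not the lowest, and Ighv7-3 was the most counted gene of its cortex.
Ighv1-22 had 60, 4, 313 and 145 counts against 0, 0, 6, 0 and 1 (log2 fold change 5.95, SE 1.13, adjusted p = 0.00224). The 6 counts of pCtrl mouse 15 exceed the 4 of α-IgLON5 mouse 9, but not in CPM. Ighv1-81 had 90, 0, 31 and 3974 counts against 0, 0, 1, 0 and 0. Its ratio was 3830 (687 to 151300, adjusted p = 0.0141), and its groups overlapped at mouse 9.
Ighv6-6, Ighv9-3 and Ighv11-2 were called as well (adjusted p = 0.00041, 0.00243 and 0.0358). Ighv9-3 had 24, 3, 23 and 47 counts and Ighv11-2 had 179, 0, 5 and 33 counts, with 0 in each pCtrl cortex. They were at least 5.08-fold and at least 13.2-fold higher in α-IgLON5. The call of Ighv11-2 was lost without any pCtrl cortex or the cortex of α-IgLON5 mouse 8 (adjusted p from 0.063 to 0.258), and that of Ighv1-81 without the cortex of pCtrl mouse 15 or α-IgLON5 mouse 17 (0.0754 and 0.122). The fitted log2 fold change of Ighv1-81 was 10.87, 6.75 without the cortex of mouse 17 and 12.39 without that of pCtrl mouse 15, and that of Ighv11-2 fell from 8.65 to 6.30 without mouse 8. It fell from 6.94 to 6.08 for Ighv1-78 without mouse 8 and from 5.95 to 4.97 for Ighv1-22 without mouse 16. Without pCtrl mouse 15 it was 7.89 for Ighv1-22 and 9.08 for Ighv7-3, the latter against 7.56 with all libraries. The fit of the 2 groups alone ended the calls of Ighv1-81 and Ighv11-2 (adjusted p = 0.0553 and 0.185), and DESeq2 that of Ighv11-2 (0.107).
The 9 other tested genes among those named were not called in the cortex, with adjusted p values from 0.0682 for Ighv1-26 to 0.364 for Ighv1-76. Ighv1-26 had 105, 2, 59 and 23 counts and 0 in each pCtrl cortex, and its groups did not overlap. An effect called in one tissue and not in the other is not thereby different between them, and the interaction is given with the tissues.

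The few Ighv counts of control mice fell on some animals more than on others. The hippocampus and cortex of pCtrl mouse 15 had 57 and 29 counts, the hippocampus of PBS mouse 14 had 18 and that of pCtrl mouse 75 had 15, while its cortex had 6. Ighv1-82 made up 13 of the 15 counts in the hippocampus of mouse 75 and 5 of the 6 in its cortex. Between pCtrl and PBS, edgeR called 0 of the 22 tested members in the hippocampus (0.0493% of all tested genes were called up and 0.0148% down) and 0 in the cortex (0% in either direction). At an unadjusted p under 0.05 there were 0 members in each tissue, and DESeq2 also called 0, where it called 0.242% of all tested genes up and 0.0987% down in the hippocampus and 0% in the cortex. A fit of the 2 groups alone called 0 in each tissue and had 3 members in the cortex and 0 in the hippocampus at an unadjusted p under 0.05. In 8 of the 22 in the hippocampus and 12 in the cortex neither group held a count, so these could not be called.

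The Ighv level in CPM was higher in the hippocampus than in the cortex of α-IgLON5 mice 8, 16 and 17. The hippocampal level was 3.40, 1.10, 3.10 and 2.01 times the cortical one in mice 8, 9, 16 and 17, and in mouse 9 the 95% Poisson intervals of the tissues overlapped (4.39 to 6.16 CPM in the cortex and 4.73 to 6.87 CPM in the hippocampus). Ighv7-3, Ighv1-53 and Ighv1-82 were called lower in the cortex, 3 of the 22 tested members where 2.46% of all tested genes were called lower, and 0 members were called higher, where 2.7% were. Their log2 differences, cortex minus hippocampus, were -2.40 (SE 0.63, adjusted p = 0.00603), -1.70 (SE 0.55, adjusted p = 0.027) and -3.52 (SE 1.12, adjusted p = 0.0285).
With the mouse as a replicate block 15 of the 22 were called, 14 lower in the cortex (2.55% of all tested genes) and 1, Ighv1-81, higher (2.81%). In that paired fit Ighv1-81 was 2.16 log2 units higher in the cortex (SE 0.22, adjusted p = 0.000153), against 2.32 (SE 1.30, adjusted p = 0.222) without the block. DESeq2 called 0 of the 22, with 1 at an unadjusted p under 0.05, where it called 2.7% of all tested genes higher and 2.28% lower in the cortex. A fit of the 2 groups alone also called 0, with 6 at an unadjusted p under 0.05 (2.44% and 1.98%). In normalized CPM Ighv1-81 was at 2.45, 0, 0.738 and 71.3 in the cortices of mice 8, 9, 16 and 17 and at 0.788, 0, 0.214 and 13.2 in their hippocampi, so it was higher in the cortex of each mouse that had a count. In the fit without the block, leaving out the cortex of mouse 17 but not its hippocampus gave a log2 difference of -1.76. Ighv7-3 was higher in the cortex of mouse 9, with 1.99 against 0.451 normalized CPM, and lower in that of the other mice, and with the block its log2 difference was -1.94 (SE 0.61, adjusted p = 0.0442). Ighv7-3 was not called without the hippocampus of mouse 17 (adjusted p = 0.0726). The same holds for Ighv1-53 without the cortex of mouse 9 or the hippocampus of mouse 8 or 16 (adjusted p from 0.0527 to 0.123), and for Ighv1-82 without the cortex of mouse 8, 9 or 16 or the hippocampus of mouse 17 (0.0662 to 0.618), the last with a log2 difference of -0.78. The number called lay between 1, without the cortex of mouse 9, and 9, without the hippocampus of mouse 9. It was 7, 6 and 5 without the cortex of mouse 8, the cortex of mouse 17 and the hippocampus of mouse 16. With 1 library left out, 2.3 to 2.85% of all tested genes were called higher in the cortex and 2.24 to 2.69% lower.
For the treatment effect itself, the interaction of tissue with α-IgLON5 against pCtrl was called for 0 of the 22 members by edgeR, with and without the block, and by DESeq2, and 0% of all tested genes were called in the fit without the block. In that fit the smallest adjusted p was 0.62 and 0 had an unadjusted p under 0.05. With the block 2 members had an unadjusted p under 0.05, and with DESeq2 1 had. At a fold above 2 the block fit called 0.00987% of all tested genes as rising more in the hippocampus and 0% as rising less. DESeq2 called 0.00493% and 0.0296%. For 9 of the 22, which had no pCtrl count in either tissue, the interaction could not be estimated.

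The shares of V genes differed between α-IgLON5 mice. Usage is the share of a gene in the Ighv counts of a library, given with a 95% Wilson interval. Ighv1-78 led in mouse 8, with 13.4% (11.9 to 15.0%) of 1872 counts in the cortex and 13.1% (11.97 to 14.2%) of 3463 in the hippocampus. Ighv1-22 led in mouse 16, with 30.7% (27.9 to 33.6%) of 1021 counts in the cortex and 21.4% (19.7 to 23.1%) of 2294 in the hippocampus. In these mice the same gene came first in both tissues, and Ighv1-22 did not exceed 5.22% in any library of the other mice.
Mice 9 and 17 had a different leading gene in each tissue. In mouse 9 Ighv7-3 took 39.3% (31.6 to 47.6%) of only 140 cortical counts and 6.96% of 115 hippocampal counts, where Ighv1-78 led with 22.6% (15.9 to 31.1%). In mouse 17 Ighv1-81 took 58.2% (57.0 to 59.4%) of 6829 cortical counts and 5.55% of 8287 hippocampal counts, where Ighv1-82 led with 23.3% (22.4 to 24.2%), Ighv1-58 followed with 17.9% and Ighv1-76 with 11.2%. The cortical share of Ighv1-81 in mouse 17 is the highest that a member reached in an α-IgLON5 library, and its interval is far from that of the hippocampus. The second exons of Ighv1-81 and Ighv1-82 differ at 35 positions, and 100% of the 75-base windows of either gene are distinct.

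**Figure D2:**
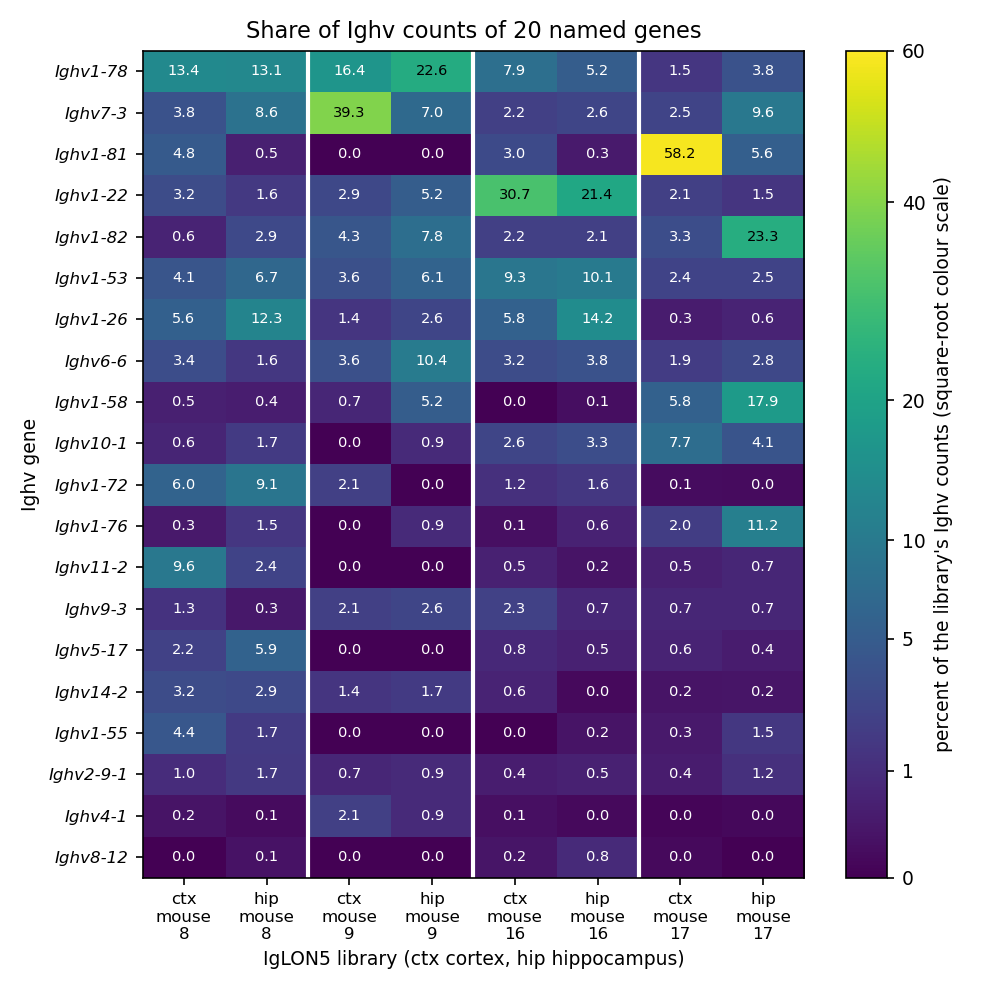
Share of the library's Ighv counts, in percent, of the 20 named genes (rows, ordered by mean share) in the 8 α-IgLON5 libraries (columns, cortex and hippocampus of each mouse side by side), with colour on a square-root scale. Each cell prints its percent. The lightest cells are Ighv1-22 in the cortex of mouse 16 (30.7%), Ighv7-3 in the cortex of mouse 9 (39.3%) and Ighv1-81 in the cortex of mouse 17 (58.2%).

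The number of genes that carry the counts differed as well. The inverse Simpson number, the number of equally used genes that would give the same concentration of counts, was 18.3, 5.22, 8.26 and 2.83 in the cortices of mice 8, 9, 16 and 17. In their hippocampi it was 15.3, 10.4, 11.2 and 8.53. Mouse 8 was the most even in both tissues, and the cortex of mouse 17 the least. Thinned to 115 counts, the number of the smallest library, the expected number of genes with a count lay between 18.6 and 30.4 over the 8 libraries, lowest in the cortex of mouse 17. The 5 most counted genes held between 40.6% and 78.8% of a library's counts (median 56.9%).

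Each cortex shared more of its V gene usage with the hippocampus of its own mouse than with that of another mouse. Shared usage is the sum over genes of the smaller of the 2 shares, 100% for equal usage. Between the cortex and the hippocampus of a mouse it was 63.0%, 50.7%, 75.9% and 39.9% in mice 8, 9, 16 and 17 (median 56.9%). In the 12 pairs of a cortex and a hippocampus of different mice it ranged from 22.6 to 41.5% (median 31.6%), and in the 12 pairs of different mice within a tissue from 17.4 to 47.4% (median 36.5%). Each pair shares libraries with other pairs, so these values are given without a test. In 4 of 4 cortices the hippocampus with the highest shared usage was that of the same mouse, and in 4 of 4 hippocampi it was the same mouse's cortex. The closest margin was in mouse 17, where its hippocampus shared 39.9% with its own cortex and at most 31.9% with another cortex. In mouse 9 the own value of 50.7% stood against 41.5% for the highest pair of its cortex or hippocampus with the other tissue of another mouse, on 140 and 115 counts.

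**Figure D3:**
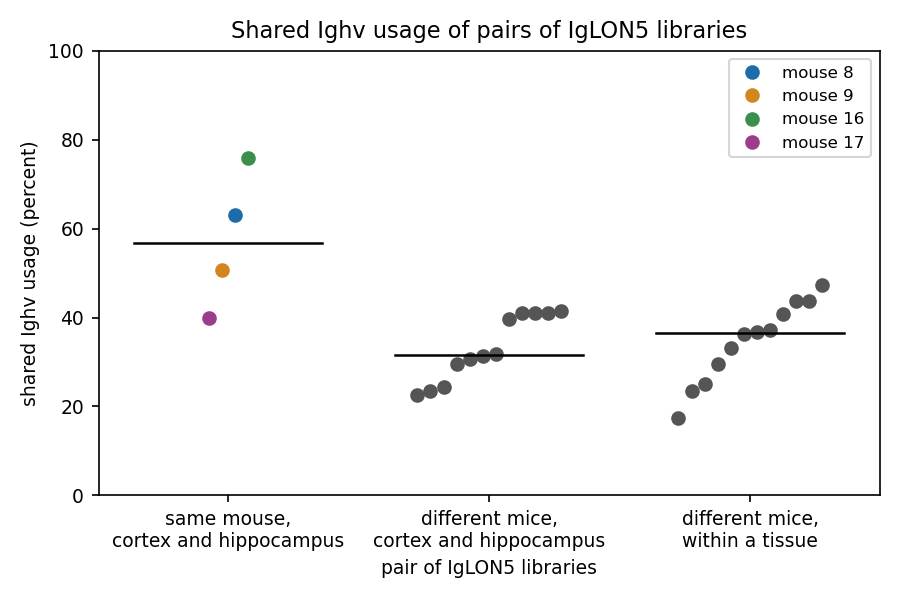
Shared Ighv usage in percent for pairs of α-IgLON5 libraries, by kind of pair, with each point a pair and bars at the medians. The same-mouse pairs lie between 39.9 and 75.9%, and pairs of a cortex and a hippocampus of different mice between 22.6 and 41.5%.

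**Figure D4:**
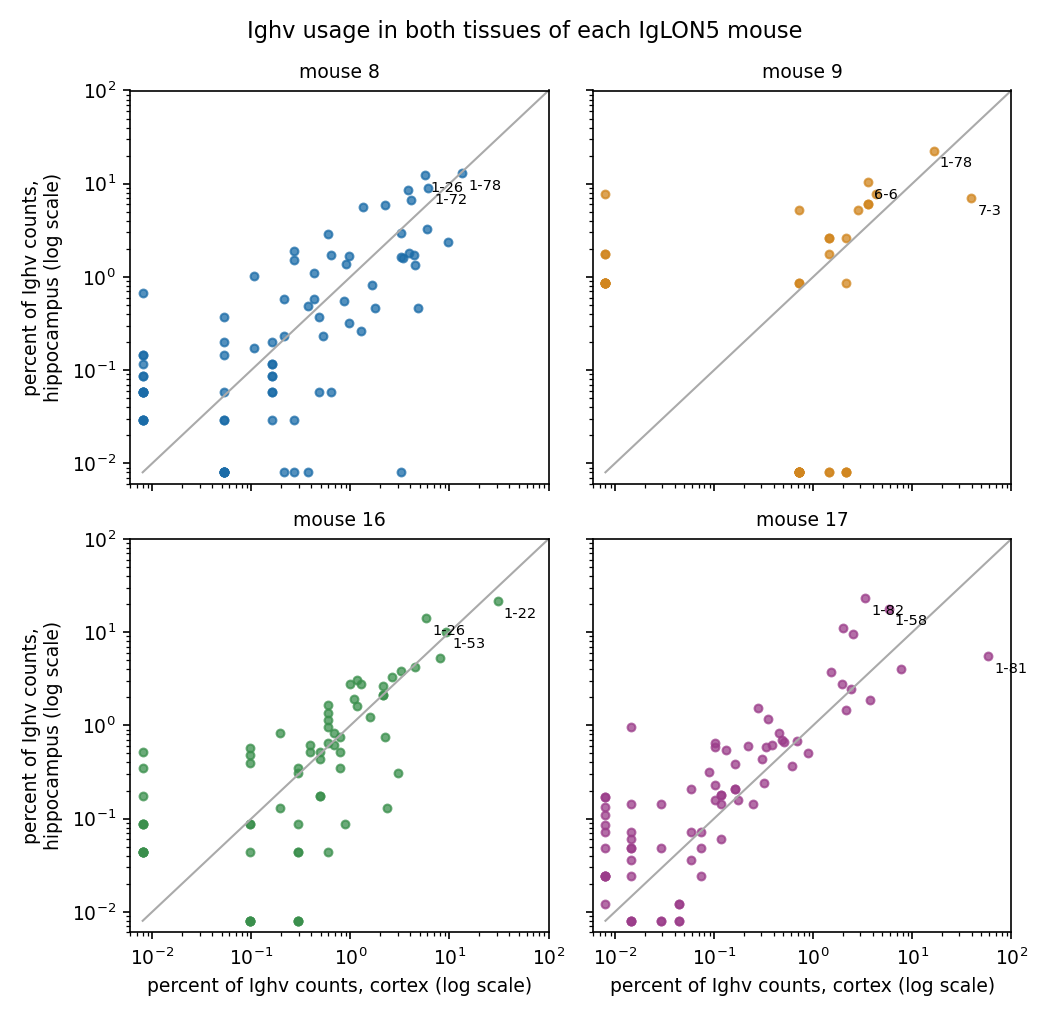
Share of each Ighv gene in the Ighv counts of the cortex (x axis, percent, log scale) and hippocampus (y axis, percent, log scale) of each α-IgLON5 mouse, with the identity line and the 3 most used genes labelled by the part of the symbol after Ighv. Points on the lower or left edge are genes with no count in that tissue. Ighv1-81 of mouse 17 lies far below the line, at 58.2% in cortex and 5.55% in hippocampus.

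By family, the first number of a V gene's name, Ighv1 dominated. It comprises 53 members (46.9%), the largest of the 16 families, and took from 41.4 to 82.4% of a library's Ighv counts (median 67.5%). The lowest share was in the cortex of mouse 9. The Ighv7 family has 4 members and took 2.25 to 39.3%, the Ighv6 family has 5 members and took 2.33 to 18.3%, and the Ighv11 family has 2 members and took 0 to 9.62%. Ighv7-3 held 1482 of the 1841 counts of its family. The single member of Ighv16 had no count, and the 6 members of Ighv3 took at most 0.962% of any library.

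Along the locus, counts came from the whole cluster. The members were split into 3 runs of like size by their order from the end nearest the D segments, which is the end with the lowest coordinates. The distal run (38 members) took 28.9 to 75.4% of a library's counts (median 43.3%), the middle run (38 members) 15.1 to 57.3% (median 25.1%) and the proximal run (37 members) 6.75 to 51.4% (median 18.6%). A count in an α-IgLON5 library was seen for 28, 33 and 28 members of these runs. The distal run was highest in mouse 17, with Ighv1-81, Ighv1-82, Ighv1-76 and Ighv1-58, the middle run in mouse 16, with Ighv1-22 and Ighv1-26, and the proximal run in the cortex of mouse 9, with Ighv7-3.

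**Figure D5:**
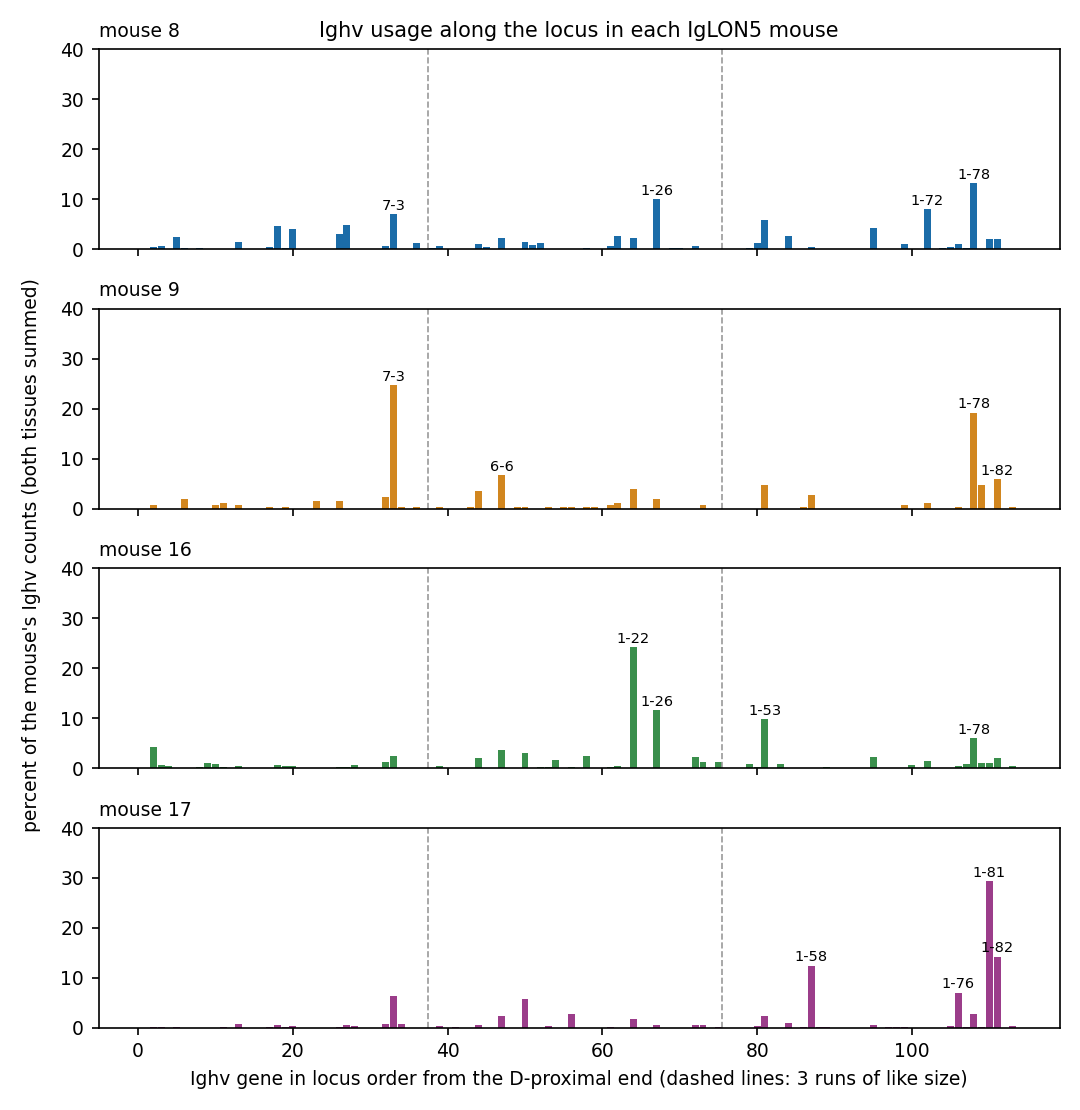
Share of each Ighv gene in a mouse's Ighv counts (y axis, percent, both tissues summed) by the gene's place in the locus from the D-proximal end (x axis), for each α-IgLON5 mouse. Dashed lines separate the 3 runs and the 4 most used genes are labelled. The tallest bars are Ighv1-78 in mouse 8 (13.2%), Ighv7-3 in mouse 9 (24.7%), Ighv1-22 in mouse 16 (24.2%) and Ighv1-81 in mouse 17 (29.3%).

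Kappa light chain variable genes and heavy chain constant genes were counted alongside the Ighv genes. Per 100 counts on the kappa light chain variable genes (100 genes), the α-IgLON5 libraries had 34.1 to 84.7 Ighv counts (median 61.8), with the lowest ratios in both tissues of mouse 9. Per 100 counts on the heavy chain constant genes they had 7.66 to 25.5 (median 20.7). The 70 Ighv pseudogenes, which encode no functional chain, had 0 to 11 counts in these libraries and 0 to 1 in controls. Control libraries held 242 to 913 counts on constant genes, and α-IgLON5 libraries 1149 to 32473.
Of the constant genes, 7 of 8 were tested, and against pCtrl 6 were up-regulated DEGs in the hippocampus and 5 in the cortex. Ighg2b, the constant gene of an IgG subclass, rose by 9.64 log2 units in the hippocampus (SE 1.14, adjusted p = 3.37e-06) and by 8.49 in the cortex (SE 1.07, adjusted p = 1.74e-05). Ighm, the constant gene of IgM, rose by 4.24 (SE 0.44, adjusted p = 8.44e-07) and by 2.30 (SE 0.37, adjusted p = 0.000269). The 4 joining genes were too low to be tested.

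Markers of the B lineage moved in the same mice, and their part in the Ighv result was not tested. Of 9 tested B cell markers 5 rose as DEGs in the hippocampi of α-IgLON5 mice and 3 in the cortices, among them Cd79b, a signalling subunit of the B cell receptor (log2 fold change 3.11, SE 0.43, adjusted p = 2.86e-05 in the hippocampus and 2.15, SE 0.42, adjusted p = 0.00197 in the cortex). The tested markers Pax5, Cr2, Fcer2a and Bank1 were called in neither tissue (adjusted p from 0.0591 to 0.998). Their log2 fold changes were 0.79, -0.56, 0.07 and 0.0012 in the hippocampus and 2.10, 0.71, 0.03 and -0.52 in the cortex. Ms4a1, a surface protein of B cells, had 0 counts in both tissues of mouse 9. The summed level of 10 B cell markers was 6.42 to 13.9 CPM in α-IgLON5 against 4.16 to 5.25 CPM in pCtrl hippocampi, and 5.77 to 12.2 against 4.17 to 5.06 CPM in cortices. Of 9 tested plasma cell markers 3 rose in the hippocampus and 1 in the cortex, with a summed level of 136.5 to 225.7 against 118.4 to 132.8 CPM in hippocampi and 138.1 to 174.5 against 130.2 to 147.0 CPM in cortices. The highest rise was that of Jchain, which links IgM and IgA into polymers (log2 fold change 6.44, SE 0.65, adjusted p = 8.44e-07, and 5.23, SE 0.61, adjusted p = 9.05e-06). Tnfrsf17, a receptor of long-lived plasma cells, had log2 fold changes of -0.40 and -0.61 (adjusted p = 0.668 and 0.521). Sdc1, a surface proteoglycan of plasma cells, had 0.49 and 0.52 (adjusted p = 0.45 and 0.507).
Among 4 tested germinal centre genes edgeR called 0 in either tissue, with 2 at an unadjusted p under 0.05 in the hippocampus and 1 in the cortex, and DESeq2 called 0 and 1. Of the V(D)J recombination genes 1 of 6 was tested and 0 were called by either tool, with 0 at an unadjusted p under 0.05. Of 5 tested class switch and hypermutation genes 0 were called in either tissue by either tool, with 0 at an unadjusted p under 0.05. Of 5 tested T cell markers 1 rose in each tissue, Cd4 in the hippocampus (log2 fold change 1.67, SE 0.41, adjusted p = 0.0128) and Cd3g in the cortex (3.41, SE 0.75, adjusted p = 0.00683), and 4 and 5 had an unadjusted p under 0.05. The median log2 fold change of the 5 was 1.14 in the hippocampus and 1.07 in the cortex. Choroid plexus, meningeal, erythrocyte and neutrophil markers gave 0 calls in either tissue by either tool, while 1, 0, 1 and 0 of their genes in the hippocampus and 0, 1, 0 and 0 in the cortex had an unadjusted p under 0.05. In this order the median log2 fold changes were -1.02, -0.25, -0.49 and 0.03 in the hippocampus and -0.20, -0.00209, -0.32 and 0.88 in the cortex. The summed level of the neutrophil markers was highest in mouse 8, with 11.96 normalized CPM in the cortex and 6.69 in the hippocampus, against at most 1.6 and 1.98 in the other α-IgLON5 mice and 2.93 and 3.81 in pCtrl mice. Of 7 glia and vessel markers 1 rose in each tissue, Gfap, an intermediate filament of astrocytes (log2 fold change 1.31, SE 0.27, adjusted p = 0.00262 in the hippocampus and 1.46, SE 0.25, adjusted p = 0.000477 in the cortex). Of 5 cortex markers 1, Igfn1, was called lower than in pCtrl in the hippocampus (log2 fold change -2.35, SE 0.45, adjusted p = 0.00169) and 0 in the cortex. In the hippocampus and cortex 4 and 2 had an unadjusted p under 0.05, and DESeq2 called 1 and 0. The median log2 fold changes were -0.57 and -0.33. Igfn1 had 44, 5, 93 and 68 counts in α-IgLON5 hippocampi, 386, 278, 920 and 181 in pCtrl and 30, 99, 161, 81 and 97 in PBS. The summed level of the cortex markers in hippocampi was 100.7 to 155.7 CPM in α-IgLON5, 147.1 to 263.1 in pCtrl and 109 to 158.5 in PBS. Of 5 hippocampus markers 0 were called in either tissue by either tool, with 3 and 0 at an unadjusted p under 0.05 and medians of 0.70 and -0.09. Of 5 neuron markers 0 were called by either tool, with 3 and 1 at an unadjusted p under 0.05 and medians of -0.20 and -0.11. The part of these shifts in the Ighv result was not tested. Of antibody assembly genes, 1 of 4 tested, Jchain, rose in each tissue.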

How the data were processed

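RNA-seq had been performed on contralateral cortex and hippocampus of PBS, pCtrl and α-IgLON5 mice. The authors prepared TruSeq stranded mRNA libraries, sequenced them as pairs of 75 cycles and aligned the reads to GRCm38 with STAR. The deposited values are raw read counts per gene. The counting program, its annotation, its strand setting and its treatment of reads that map to several places are not given in the sources used here, so reads shared by near-identical V genes may have been dropped or split.

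Symbols and gene types came from GENCODE M21, which matched 55141 of 55487 identifiers. Genes for which 4 or more libraries held 10 or more counts were fitted in all 27 libraries and 6 groups (edgeR 4.0.16, R 4.3.3, TMM normalization, quasi-likelihood F test, Benjamini-Hochberg adjustment over 20271 genes). DESeq2 1.42.0 was an alternative. Sequences were aligned with Biopython 1.88, and the tests were checked on simulated data. Named genes were the 12 with the highest mean share, the leading gene of each library, those with 5% of a mouse's counts, up to 6 called in neither tissue, those with 10 counts in a control, those called in the other comparisons, and the most counted of each family with 1% of a library's counts. The members and lists were chosen with earlier results of these data known. Nothing says whether libraries of a group came from separate experiments, so p values measure the spread between these libraries. The main fit had no term for the mouse, so both tissues of a mouse entered its estimate of the spread as separate libraries.

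Same-numbered tissues were taken as those of 1 mouse. Their deviations from the group means correlated with r of -0.0508 to 0.431 over 13 mice (median 0.193), and 0.254 to 0.431 in the α-IgLON5 mice.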

Additional observations from a re-analysis of the deposited data

Results flagged for a closer look

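In 13 of 50 groups of 4 or 5 values a single library stood apart from the rest of its group by Dixon's criterion, which chance meets in about 1 of 20 groups. The numbers cannot be set against each other, since 12 of the 13 are shares of named genes. Most of these genes were named partly for a high share in 1 library or mouse. The summed Ighv level of the PBS mouse 14 hippocampus was 0.619 CPM, against 0 to 0.091 CPM in the other PBS hippocampi.

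The other 12 are shares of Ighv counts. In the cortex of mouse 17, Ighv1-81 took 58.2% (others 0 to 4.81%), Ighv1-58 took 5.78% (0 to 0.714%) and Ighv1-76 took 2.02% (0 to 0.267%). In its hippocampus Ighv1-81 took 5.55% (0 to 0.462%) and Ighv1-76 took 11.2% (0.567 to 1.5%). Ighv1-81 and Ighv1-76 thus stood apart in both tissues of this mouse.
In the cortex of mouse 8, Ighv11-2 took 9.56% (0 to 0.49%) and Ighv1-55 took 4.38% (0 to 0.278%), and in its hippocampus Ighv5-17 took 5.92% (0 to 0.523%). In the cortex of mouse 16, Ighv1-22 took 30.7% (2.12 to 3.21%).
In the cortex of mouse 9, Ighv7-3 took 39.3% (2.16 to 3.85%) and Ighv4-1 took 2.14% (0.0146 to 0.16%), and in its hippocampus Ighv4-1 took 0.87% (0.0241 to 0.0578%). The Ighv4-1 shares of mouse 9 rest on 3 counts and 1 count.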

How the results depend on the processing

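Without the count filter, of 89 members in the fit, 46 and 50 were called in the hippocampus against pCtrl and PBS (1.25% and 1.47% of all 40544 genes), 16 and 17 in the cortex (1.26% and 1.3%) and 8 between the tissues, 1 higher in the cortex and 7 lower (1.57% and 1.24%). Fits of the compared groups alone called 9 in the hippocampus against pCtrl, 6 and 5 in the cortex (1.27% and 1.36% of all tested genes) and 0 between the tissues, and the fit of mice 8 to 17 called 0 in each tissue, with fewer samples. DESeq2 called 12 in the hippocampus against PBS and 0 between the tissues. With the replicate block 15 were called between the tissues. The cause of the other differences was not tested. Leaving out 1 library gave 13 to 20 in the hippocampus against either control. Of all tested genes, 1.61 to 2.54% were then called up against pCtrl and 1.85 to 2.71% against PBS. In the cortex it gave 7 to 11 against pCtrl (1.08 to 2.71%) and 8 to 11 against PBS (1.29 to 2.59%). Between the tissues it gave 1 to 9, where 2.3 to 2.85% of all tested genes were called higher in the cortex and 2.24 to 2.69% lower. The block, run for the tissue comparison and the interaction, left the members called in the interaction at 0. With families in place of genes the median top share was 67.5%, the inverse Simpson number 2.11 and the shared usage 89.3% within and 77.8% between mice. As a correlation of log shares, shared usage was 0.85 within and 0.59 between mice, and leaving out a library gave medians of 30.7 to 39.7% between mice.

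The log2 difference between cortex and hippocampus changed sign for Ighv11-2 without the count filter (0.0051, from -0.056). Leaving out 1 library from the fit without the block kept the other tissue of that mouse, so differences between mice enter these values. The log2 difference then ranged from -1.76 to 5.82 for Ighv1-81, -1.86 to 0.41 for Ighv1-22, -3.45 to 0.58 for Ighv10-1 and -4.64 to 0.95 for Ighv1-72. It ranged from -2.40 to 1.09 for Ighv11-2, -0.69 to 0.50 for Ighv9-3, -2.95 to 0.25 for Ighv5-17 and -3.17 to 1.15 for Ighv14-2. Of the alternatives for named genes 554 kept their direction and side of the threshold, 83 lost the call, 30 gained one and 13 changed sign. A geometric mean was not possible for control groups with a library at 0, and the thinned top share was not run. Depth limits mouse 9 most, with 140 and 115 Ighv counts.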
